A study of Mus musculus with 6 samples.

Results

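Superoxide dismutases, catalase, glutathione peroxidases and peroxiredoxins, the enzymes that remove superoxide and peroxides, were followed in mouse liver 1 day after bile duct ligation. The list held 10 genes, and members were all probe sets whose platform annotation names 1 of these genes and no other. Such probe sets were found for 8 of the 10 genes, 11 probe sets out of 12488 on the array, and 10 of the 11 passed the filter on low signals, covering all 8 genes. Prdx1, a cytosolic peroxiredoxin, was carried by 2 probe sets that the annotation also assigns to Gm21399, so it is given no value, and Prdx6, the 1-Cys peroxiredoxin, had no named probe set in the annotation used here.

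The study measured liver RNA of 6 male C57BL/6J mice, wild type and 8 to 10 weeks old, on Affymetrix U74Av2 arrays, 1 mouse per array. In the 3 BDL mice, labelled replicates 1, 12 and 3, the common bile duct was ligated and cut 1 day before sampling, which stops bile flow. The 3 sham mice, replicates 1, 2 and 3, had their abdomen opened without ligation 1 day earlier and are the controls. All 6 mice carried no engineered allele, and all had an operation under methoxyflurane, so the comparison shows ligation against surgery alone, not against an unoperated mouse.

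Superoxide dismutases turn superoxide into hydrogen peroxide: Sod1 is the copper and zinc enzyme of the cytosol, Sod2 the manganese enzyme of the mitochondrial matrix, and Sod3 the secreted enzyme that binds to matrix around vessels. Hydrogen peroxide is then removed by catalase, a haem enzyme that fills liver peroxisomes, by selenium-containing glutathione peroxidases, which spend glutathione, and by peroxiredoxins, which spend thioredoxin. In cholestasis, retained bile acids are known to stress hepatocyte mitochondria and to draw inflammatory cells that make oxidants.

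The promoters of Sod1 and Sod2 are shown because both genes remove the same radical in different compartments and differ in the letters before their starts. The sequences are the 150 bases just before each gene's start, from RefSeq (GRCm38.p6), at chr16:90220612-90220761 for Sod1 and chr17:13007689-13007838 for Sod2, both on the plus strand. Capitals mark the antioxidant response element core TGACNNNGC, to which NRF2 binds, the GC box GGGCGG and the TATA box TATAAA, each searched on both strands.
Sod1: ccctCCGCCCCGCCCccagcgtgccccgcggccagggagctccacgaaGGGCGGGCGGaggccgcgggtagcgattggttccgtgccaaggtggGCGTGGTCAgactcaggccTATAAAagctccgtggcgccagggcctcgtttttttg
Sod2: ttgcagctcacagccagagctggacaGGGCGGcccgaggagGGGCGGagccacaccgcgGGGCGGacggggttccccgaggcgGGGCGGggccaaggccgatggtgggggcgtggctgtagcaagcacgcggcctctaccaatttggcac
Sod1 had 4 GC boxes, which overlap each other in pairs, 1 TATA box and 1 match to the antioxidant response element core, on the minus strand. Sod2 had 4 GC boxes and no match to the other motifs in its window. Windows of 250 bases before to 50 bases after the start were listed for 8 of the 10 members. Of 32851 such windows in the table, 12.4% held the antioxidant response element core, 35.7% the GC box and 13.6% the TATA box. Of the listed genes with a window, Sod1 and Prdx1 had a match to the antioxidant response element core, 1 each and on the minus strand. Prdx1 has no value here. These matches are letters in a window and say nothing of binding in these livers.

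The deposited signals had been brought to a common level, with a 2% trimmed mean of 1501 on every array. Sham replicate 1 stood apart at low signals: 12.5% of its probe sets lay at or under the floor, the signal of 152.7 below which values were set to it, against 24.4% to 31.3% on the other arrays. The hepatocyte markers Alb and Apoa1 had lowest signals of 125084 and 115982 on any array. The 9 tested hepatocyte markers had a median log2 difference of -0.11, BDL minus sham, with 4 positive, beside 49.2% of all tested genes. Ttr, the plasma carrier transthyretin, had 3576, 4520 and 4824 in BDL replicates 1, 12 and 3, against 11138, 6456 and 14576 in sham replicates 1, 2 and 3, a difference of -1.25 (SE 0.36). It was the 1 of these 9 with an unadjusted limma p under 0.05, a rule by which 3.42% of all tested genes were higher and 2.28% lower. Of the 6 cholangiocyte markers on the array, 3 passed the filter.

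No probe set of the 8 measured antioxidant enzymes passed the test between BDL and sham livers. With limma, 0 of the 10 tested member probe sets were called at an adjusted p of 0.05, and 0 had an unadjusted p under 0.05. Over the whole array these shares were 0% of 9542 tested probe sets for the adjusted p and 5.78% for the unadjusted p. BDL and sham signals overlapped for all 10, where 10.6% of tested probe sets had groups that did not overlap. A positive difference was found for 5 of the 10, against 48.8% of all tested probe sets. With each gene read from its probe set of highest mean signal, the median log2 difference of the 8 genes was 0.01, BDL minus sham, beside -0.01 over all 6897 tested genes. That median was 0.18 without BDL replicate 12.

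The 95% intervals bound what these 6 arrays can show. For 5 of the 10 probe sets, those of Sod1, Gpx1 and Gpx4 and 1 each of Cat and Prdx2, the interval lay within a 2-fold change either way, which held for 34.5% of all tested probe sets. That 2-fold limit was chosen after the values were seen. The intervals of the other 5 reached past 2-fold on 1 side, so changes of that size in Sod2, Sod3, Gpx3 or the other Cat and Prdx2 probe sets could not be told from none.

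**Figure D1:**
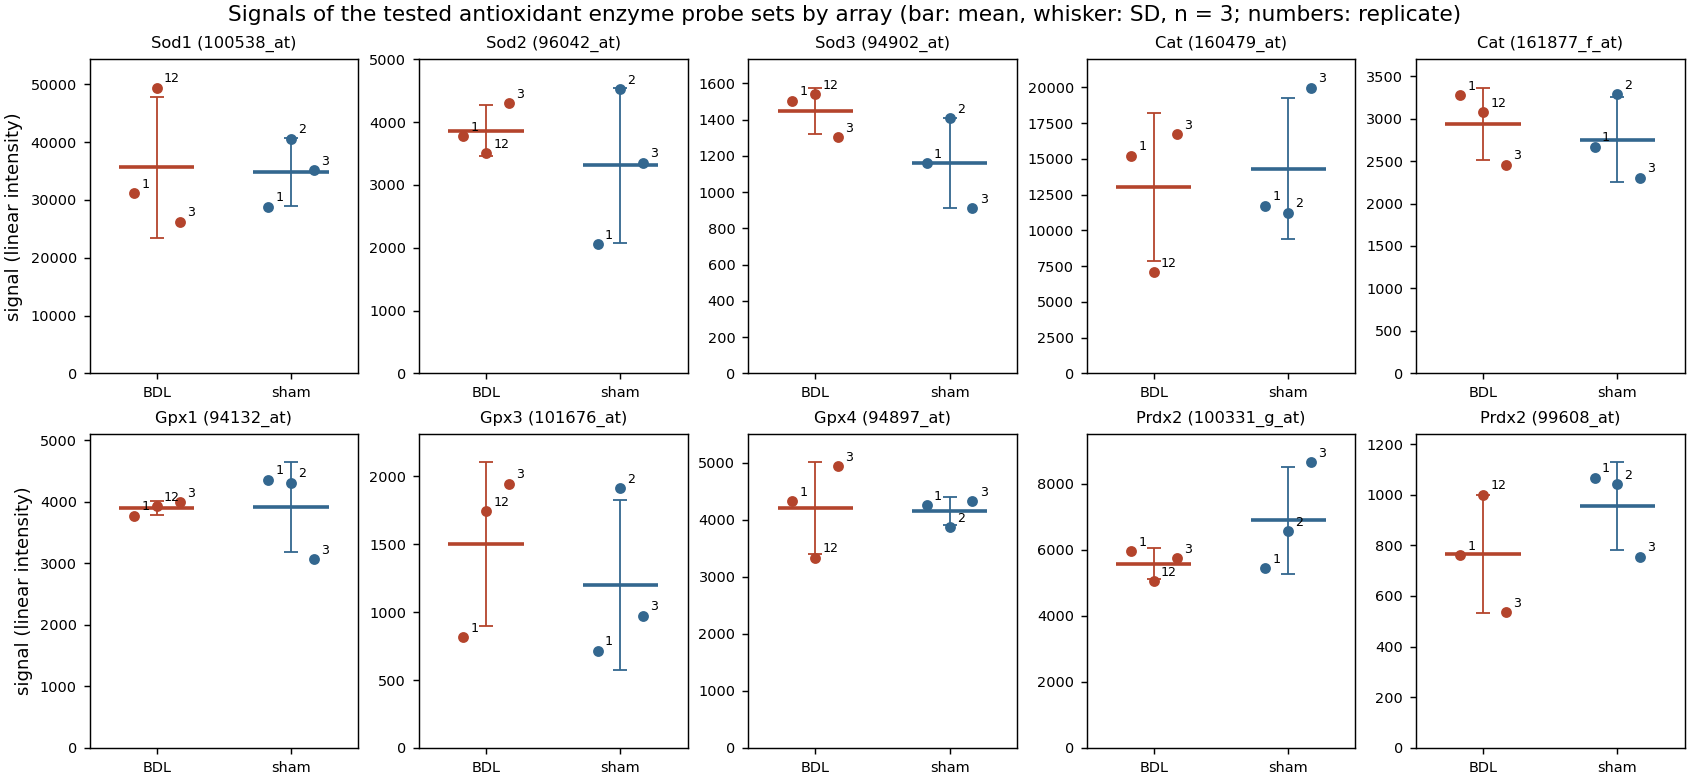
Linear signal of each tested member probe set on each array, BDL on the left and sham on the right of each panel, with the mean (bar) and SD (whisker) of 3 mice and the replicate number beside each point. The BDL and sham points overlap in all 10 panels, and Sod3 comes nearest to a separation.

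**Figure D2:**
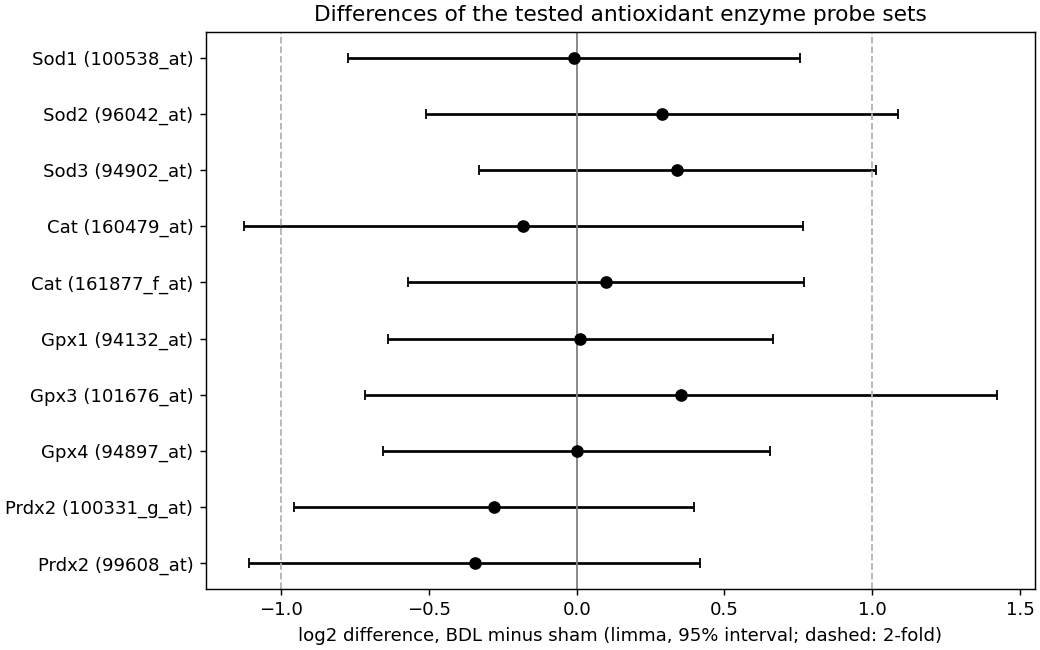
Log2 difference, BDL minus sham, of each tested member probe set with limma's 95% interval, where dashed lines mark 2-fold. All 10 intervals include 0, and 5 stay inside the dashed lines.

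Sod1 signals were 31193, 49430 and 26226 in BDL replicates 1, 12 and 3, against 28805, 40596 and 35164 in sham replicates 1, 2 and 3. BDL replicate 12 was the highest array and BDL replicate 3 the lowest, so the sham values lay inside the BDL range. BDL livers averaged 35616 ± 12218 and sham livers 34855 ± 5902 (SD, n = 3 each), a log2 difference of -0.01 (95% interval -0.77 to 0.76, limma adjusted p = 0.998).

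Sod2 signals were 3779, 3505 and 4299 in BDL replicates 1, 12 and 3, against 2055, 4525 and 3356 in sham replicates 1, 2 and 3. The BDL mice lay close together, with a highest value 1.23 times the lowest, while sham replicate 1 was the lowest and sham replicate 2 the highest array of all. The log2 difference was 0.29 (SE 0.35, limma adjusted p = 0.901), with an interval of -0.51 to 1.09. Sham replicate 1 set this direction: without it the difference was -0.02, and without sham replicate 2 it was 0.55.

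Sod3 signals were 1505, 1539 and 1303 in BDL replicates 1, 12 and 3, against 1161, 1407 and 910 in sham replicates 1, 2 and 3. In 8 of the 9 pairings of a BDL with a sham mouse the BDL mouse was higher, the exception being BDL replicate 3 against sham replicate 2. Means were 1449 ± 127 in BDL and 1159 ± 249 in sham (SD, n = 3 each). The log2 difference was 0.34 (SE 0.29, limma adjusted p = 0.866), a 1.27-fold ratio of geometric means. The difference kept its sign in all 17 alternative settings, between 0.18 and 0.49, and passed in 0 of them. Without sham replicate 3 it was 0.18.

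Because Sod3 is made mainly by cells of the vessel wall, markers of such cells were read beside it. Endothelial markers, 10 tested of 11 listed, had a summed signal between 8459 and 10830 in BDL livers and between 5147 and 9916 in sham livers. Their sum was low on sham replicates 1 and 3, the arrays where Sod3 was low, and their median log2 difference was 0.47. By an unadjusted p of 0.05, 2 of them were higher and 0 lower in BDL, where 3.42% of all tested genes were higher and 2.28% lower. Of the defining markers, Cdh5, the junction protein VE-cadherin, had 831, 885 and 721 in BDL replicates 1, 12 and 3, against 228, 888 and 216 in sham replicates 1, 2 and 3. Of the 10, 9 had a positive difference, beside 49.2% of all tested genes, and Pecam1 was the exception at -0.25 (SE 0.67). Tek was at 0.03 (SE 0.35), Vwf at 0.12 (SE 0.39) and Tie1 at 0.24 (SE 0.51) on its brighter probe set. Stellate and smooth muscle markers, 7 tested of 10 listed, summed to 9243 to 10495 in BDL and 7491 to 15407 in sham. Sham replicate 1 had the highest sum of all arrays and sham replicate 3 the lowest, while Sod3 was low on both. The median of these markers was -0.11 with 3 of 7 positive, and by the same rule 1 of them was higher and 0 lower. Most of that sum was Col1a2, a collagen chain, and without it the sums were 2681 to 4729 in BDL and 2234 to 4826 in sham. The 1 higher was Acta2, smooth muscle actin, with 486, 209 and 473 in BDL replicates 1, 12 and 3, against 192, 73.3 and 23.6 in sham replicates 1, 2 and 3. All its BDL values lay above all sham values, 2 of which were under the floor, and the log2 difference was 1.14 (SE 0.38). Des, the muscle filament protein desmin, differed by -0.89 (SE 0.52) with overlapping groups. In bulk tissue fewer cells of a type and less RNA per cell cannot be told apart, and the part of either marker list in the Sod3 values was not tested.

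Cat was read by a pair of probe sets. On 160479_at its signals were 15217, 7092 and 16731 in BDL replicates 1, 12 and 3, against 11733, 11228 and 19981 in sham replicates 1, 2 and 3. BDL replicate 12 had the lowest value of all 6 mice, and the other BDL mice lay inside the sham range. The log2 difference was -0.18 (SE 0.42, limma adjusted p = 0.951), and it was 0.21 without BDL replicate 12 and 0.09 without sham replicate 3.

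On the other Cat probe set, 161877_f_at, signals were 3277, 3077 and 2459 in BDL replicates 1, 12 and 3, against 2668, 3285 and 2303 in sham replicates 1, 2 and 3. It did not show the low value of BDL replicate 12, and its log2 difference was 0.10 (SE 0.29, limma adjusted p = 0.959). The probe sets of Cat therefore disagreed on which mouse was lowest and on the sign, with both signs inside the error.

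Gpx1, the abundant glutathione peroxidase of cytosol and mitochondria, had signals of 3772, 3927 and 3992 in BDL replicates 1, 12 and 3, against 4359, 4306 and 3069 in sham replicates 1, 2 and 3. The 3 BDL values lay within 1.06-fold of each other and inside the sham range, which spanned 1.42-fold. The log2 difference was 0.01 (SE 0.29, limma adjusted p = 0.997).

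Gpx4, which reduces lipid hydroperoxides inside membranes and protects cells from ferroptosis, had signals of 4326, 3336 and 4937 in BDL replicates 1, 12 and 3, against 4256, 3872 and 4325 in sham replicates 1, 2 and 3. Here the sham values lay inside the BDL range, whose lowest array was replicate 12. The fold of BDL over sham was 1.00, with a 95% interval of 0.635 to 1.57 (limma adjusted p = 0.9996). RefSeq also lists the pseudogenes Gpx4-ps1 and Gpx4-ps2, and whether the probe set reads their transcripts was not tested.

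Gpx3, the secreted glutathione peroxidase of plasma, had signals of 817, 1745 and 1945 in BDL replicates 1, 12 and 3, against 717, 1911 and 973 in sham replicates 1, 2 and 3. It was the most variable of the tested member probe sets: values spanned 2.38-fold among BDL and 2.67-fold among sham mice, and its residual spread stood at the 81.8th percentile of all tested probe sets. The log2 difference was 0.35 (SE 0.47, limma adjusted p = 0.910) with an interval of -0.72 to 1.42, and the difference leaned on single arrays. It was 0.74, 0.20 and 0.12 without BDL replicates 1, 12 and 3, and 0.04 and 0.75 without sham replicates 1 and 2.

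Prdx2, a thiol peroxidase that is plentiful in red cells, had lower mean signals in BDL on both tested probe sets. On 100331_g_at signals were 5953, 5056 and 5749 in BDL replicates 1, 12 and 3, against 5452, 6572 and 8654 in sham replicates 1, 2 and 3. Sham replicate 3 was the highest array and BDL replicate 12 the lowest, and the log2 difference was -0.28 (SE 0.30, limma adjusted p = 0.885), or -0.10 without sham replicate 3 and -0.44 without sham replicate 1.

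On 99608_at Prdx2 signals were 762, 1001 and 537 in BDL replicates 1, 12 and 3, against 1067, 1042 and 754 in sham replicates 1, 2 and 3. The lowest array was BDL replicate 3 and the highest sham replicate 1, and the log2 difference was -0.35 (SE 0.33, limma adjusted p = 0.873). Leaving out BDL replicate 3 gave -0.11, and leaving out BDL replicate 12 gave -0.56. Although the sign was shared, the mice were ordered differently on these probe sets. The third Prdx2 probe set, 100330_at, was at or under the floor on all 6 arrays, where BDL signals reached 17.1 at most and sham signals 73.4, and was not tested.

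Erythroid markers were read beside Prdx2. Of 11 listed, 6 were tested, 2 of them with a positive difference and 0 at an unadjusted p under 0.05. Of all tested genes 49.2% were positive, and by that p 3.42% were higher and 2.28% lower. The erythroid markers' summed signal was 20995 to 24448 in BDL and 12873 to 24973 in sham, with a median log2 difference of -0.22. Most of that sum was Hba-a1 on all but 2 arrays, and without it the sums were 5369 to 8593 in BDL and 6550 to 7090 in sham. Hba-a1, an alpha-globin chain, had 15626, 15855 and 17762 in BDL replicates 1, 12 and 3, against 5902, 18423 and 6473 in sham replicates 1, 2 and 3. Alas2, the haem synthesis enzyme of red cell precursors, differed by -0.24 (SE 0.39). In sham replicate 3, the mouse with the highest Prdx2 signal on 100331_g_at, Hba-a1 was low, while Alas2, at 2710, was the highest of the sham mice. The part of these cells in the Prdx2 values was not tested.

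Across mice, the 8 genes did not share 1 profile. After each gene's mean over the 6 arrays was subtracted, the 8 genes averaged -0.02, -0.02 and 0.14 in BDL replicates 1, 12 and 3, against -0.26, 0.16 and 0.00 in sham replicates 1, 2 and 3 on the log2 scale. Sham replicate 1 was the lowest array on this measure, with 2 of 8 genes above their own mean, and sham replicate 2 the highest, with 6 of 8. BDL replicate 12 held both extremes: 3 of the 8 genes, Cat, Gpx4 and Prdx2, had their lowest value there and 2, Sod1 and Sod3, their highest. Over all 6897 tested genes, 16.6% had their lowest and 16.9% their highest value on that array.

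**Figure D3:**
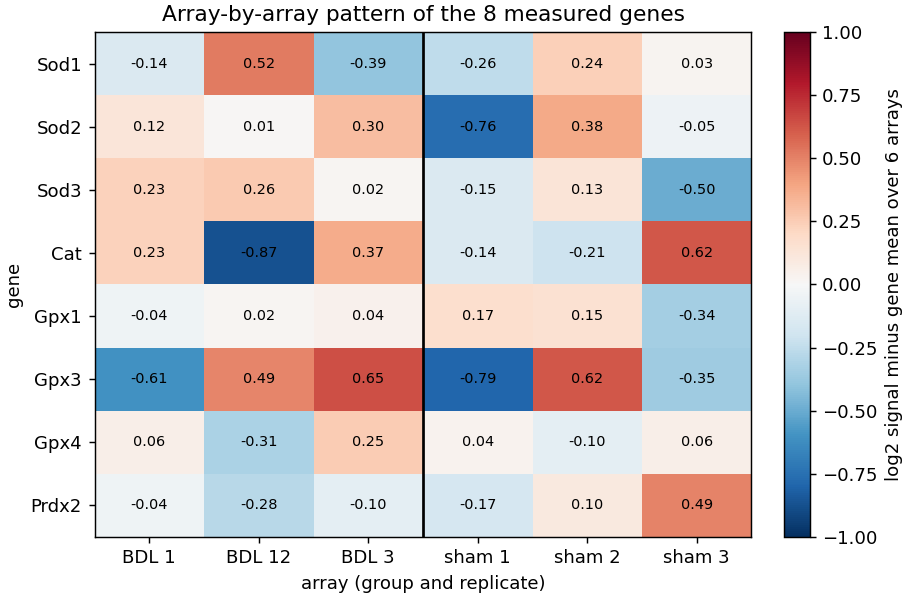
Log2 signal of each measured gene minus its mean over 6 arrays, with BDL arrays left and sham arrays right of the line, numbers giving each value. Catalase reaches -0.87 on BDL replicate 12 while Sod1 reaches 0.52 there, and Sod2 and Gpx3 are lowest on sham replicate 1.

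The distance between profiles, taken as the Euclidean distance over the 6 arrays of the centred log2 values, was smallest for Sod3 and Gpx1 (0.51) and largest for Cat and Gpx3 (2.17). The residual spread of the tested member probe sets had a median of 0.31 on the log2 scale, beside 0.44 over all tested probe sets. Gpx1 and Gpx4 were among the steadiest, at the 8.74th and 9.55th percentile of residual spread.

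The genes with the smallest distance from the mean profile of the 8 enzymes were Mtmr1 (0.13), Bak1 (0.15) and Ubap1 (0.15). Those nearest to Sod2 were Rab4a (0.20), Mlf2 (0.21) and Kpna3 (0.22). Each was found among 6889 other genes over 6 arrays, and the differences of these 6 genes lay between -0.03 and 0.33.

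The other peroxiredoxins and glutathione peroxidases on the array were read in the same way. Of the 4 that passed the filter, 2 had a positive difference, beside 49.2% of all tested genes. In either direction 0 had an unadjusted p under 0.05, against 3.42% of all tested genes for higher and 2.28% for lower signals. Gpx2, a glutathione peroxidase of epithelia, had signals of 887, 1031 and 1240 in BDL replicates 1, 12 and 3, against 2032, 1397 and 1193 in sham replicates 1, 2 and 3. Only BDL replicate 3 and sham replicate 3 overlapped, and the log2 difference was -0.53 (SE 0.32, limma adjusted p = 0.832), or -0.31 without sham replicate 1. Prdx3, the mitochondrial peroxiredoxin, differed by 0.15 (SE 0.30) and Prdx4, that of the endoplasmic reticulum, by 0.19 (SE 0.43). Gpx5 differed by -0.08 (SE 0.30) on the brighter of its tested probe sets. The list's median was 0.03, or -0.12 with the probe sets of each gene averaged.

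Genes of the thioredoxin and glutathione cycles, which return oxidized peroxidases to their working form, had 18 tested members of 24 listed. Of these, 11 had a positive difference, which 49.2% of all tested genes had. In either direction 0 passed an unadjusted p of 0.05, by which 3.42% of all tested genes were higher and 2.28% lower. The list's median log2 difference was 0.19. That median ran from -0.11 without sham replicate 1 to 0.31 without sham replicate 3, and was 0.02 without BDL replicate 12. Msrb1, the selenoprotein that repairs oxidized methionine, had 16757, 12458 and 12801 in BDL replicates 1, 12 and 3, against 21805, 19952 and 22710 in sham replicates 1, 2 and 3. All BDL values lay below all sham values, with a log2 difference of -0.63 (SE 0.28, limma adjusted p = 0.832); 4.26% of tested genes had BDL signals that were all lower.

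Gss, glutathione synthetase, was the 1 member of that list whose BDL signals were all higher, at 6396, 4448 and 4917 in BDL replicates 1, 12 and 3, against 3553, 4221 and 4012 in sham replicates 1, 2 and 3. Its log2 difference was 0.41 (SE 0.29, limma adjusted p = 0.839), and 6.32% of tested genes had BDL signals that were all higher. Without BDL replicate 1 the difference was 0.26. Hagh, a glyoxalase that releases glutathione, differed by -0.77 (SE 0.36) and Txnrd2, the mitochondrial thioredoxin reductase, by -1.16 (SE 0.64), both with overlapping groups. Both values leaned on BDL replicate 12, where the Txnrd2 signal of 155 was close to the floor: without it they were -0.49 for Hagh and -0.44 for Txnrd2.

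Genes that supply NADPH, the electron source of both cycles, had a median log2 difference of -0.42 over 10 tested members of 11 listed, with 2 positive, where 49.2% of all tested genes were positive. Of these 10, 0 had an unadjusted p under 0.05, by which 3.42% of all tested genes were higher and 2.28% lower. BDL signals were all lower for 3 of the 10 and all higher for 1, against 4.26% and 6.32% of all tested genes. Me1, cytosolic malic enzyme, had 3322, 3274 and 4090 in BDL replicates 1, 12 and 3, against 4691, 5170 and 4764 in sham replicates 1, 2 and 3, a log2 difference of -0.46 (SE 0.27, limma adjusted p = 0.832). Nnt, the mitochondrial transhydrogenase, whose gene is known to carry a deletion in the C57BL/6J strain, differed by -0.51 (SE 0.35) with the groups apart, or by -0.17 without BDL replicate 12.

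Pgd, an enzyme of the oxidative pentose phosphate pathway, differed by 0.53 (SE 0.32) on its brighter probe set and G6pd2 by -0.85 (SE 0.52), both with overlapping groups. Pgd had 1 other tested probe set, whose value is not given here. With the probe sets of each gene averaged, the NADPH list's median was -0.46. G6pd2 was at -0.37 without BDL replicate 3 and at -0.44 without sham replicate 1. Leaving out BDL replicate 12 brought the NADPH list's median to -0.14, and leaving out either sham replicate 1 or BDL replicate 3 brought it to -0.29.

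Oxidases that make hydrogen peroxide or superoxide had a median of -0.09 over 10 tested members of 24 listed, and at an unadjusted p under 0.05 there were 0 higher and 1 lower, beside 3.42% and 2.28% of all tested genes. That 1 was Sardh, with a log2 difference of -0.99 (SE 0.40), or -0.58 without sham replicate 3. Sarcosine dehydrogenase of mitochondria passes its electrons to a carrier flavoprotein and not to oxygen, so it does not do what the list's name says. The list's median was 0.03 without BDL replicate 12, 0.06 without sham replicate 3 and -0.19 without BDL replicate 1. Uox, the urate oxidase of peroxisomes, had 27575, 7815 and 22511 in BDL replicates 1, 12 and 3, against 38219, 21945 and 40609 in sham replicates 1, 2 and 3. Its lowest array was BDL replicate 12, as for Cat on 160479_at, and the log2 difference was -0.94 (SE 0.50, limma adjusted p = 0.832), or -0.38 without that array. Cyba, a membrane subunit of the phagocyte NADPH oxidase, differed by 0.70 (SE 0.37) and Xdh, xanthine dehydrogenase, by 0.57 (SE 0.36), both with overlapping groups. Cyba was at 0.43 without sham replicate 3 and Xdh at 0.32 without sham replicate 2. Cybb, the partner subunit of Cyba, added after its value was seen, differed by 0.14 (SE 0.30).

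The phagocyte values were read beside markers of such cells. Of all tested genes 49.2% had a positive difference, and by an unadjusted p of 0.05, 3.42% were higher and 2.28% lower. Macrophage and Kupffer cell markers, 9 tested of 12 listed, summed to 13951 to 38103 in BDL and 6817 to 13129 in sham, with 7 of 9 positive, a median log2 difference of 0.85 and 1 higher and 0 lower by that p. Cd14, that 1 and a lipopolysaccharide co-receptor, had 1873, 29692 and 15816 in BDL replicates 1, 12 and 3, against 717, 4568 and 1176 in sham replicates 1, 2 and 3. Without Cd14 the sums overlapped, at 8411 to 12776 in BDL and 5640 to 9284 in sham. Other markers also had positive differences with overlapping groups: Lyz2, lysozyme, 1.12 (SE 0.73), C1qa, a complement chain, 0.99 (SE 0.47), the lysosomal Cd68 0.89 (SE 0.44) and the Kupffer cell lectin Clec4f 0.85 (SE 0.54). C1qb differed by -0.29 (SE 0.29) on its brighter probe set and by 1.77 (SE 0.54), with BDL signals all higher, on the other. Adgre1, also a macrophage marker, differed by -0.19 (SE 0.52) with 2 arrays at or under the floor. Csf1r was at 0.40 (SE 0.37) on its brighter probe set and at -0.07 (SE 0.44) on the other, and C1qc at 0.29 (SE 0.30). Neutrophil markers, 10 tested of 11 listed, summed to 62353 to 109774 in BDL and 49004 to 70076 in sham, of which most was Lcn2, a gene that hepatocytes also express. Without Lcn2 they summed to 6074 to 8768 in BDL and 4923 to 11660 in sham, and 3 of the 10 had a positive difference, with a median of -0.15. By the same p, 1 of the 10 was higher and 0 lower. S100a9, a calcium-binding protein of neutrophils, differed by 1.49 (SE 0.59), its partner S100a8 by 0.72 (SE 0.65), the granule protease Elane by -0.74 (SE 0.39) and Camp, a granule peptide, by -0.60 (SE 0.33) with BDL signals all lower. Of the neutrophils' defining markers, Mpo had 3 arrays at or under the floor on its brighter probe set. The part of these cells in the Cyba values was not tested.

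Peroxisome biogenesis and membrane genes, the setting in which catalase works, had a median of -0.08 over 11 tested members of 20 listed, 3 of them positive and 0 at an unadjusted p under 0.05. Of all tested genes 49.2% were positive, and by that p 3.42% were higher and 2.28% lower. Pex19, an import receptor for membrane proteins, had 5478, 4705 and 4887 in BDL replicates 1, 12 and 3, against 1857, 4031 and 4414 in sham replicates 1, 2 and 3. All BDL values lay above all sham values, of which replicate 1 was far the lowest, and the log2 difference was 0.64 (SE 0.38, limma adjusted p = 0.832), or 0.25 without that array. Pxmp2, a peroxisomal membrane channel, was lower in all BDL than in all sham mice by a log2 difference of -0.44 (SE 0.30), while Abcd2, a fatty acid transporter, differed by 0.57 (SE 0.39) and Pex5, the import receptor that also carries catalase, by -0.41 (SE 0.30). Pxmp2 was at -0.26 without BDL replicate 12, Pex5 at -0.25 without sham replicate 2, and Abcd2 at 0.26 and 0.89 without BDL replicates 1 and 3. The list's median was -0.23 without BDL replicate 1 and near 0 without sham replicate 2. In this list 6 of 11 genes had their lowest value on BDL replicate 12, beside 16.6% of all tested genes. This was not particular to peroxisome genes: it held for 9 of 18 thioredoxin and glutathione cycle genes and 5 of 10 NADPH genes. It held for 3 of 9 metal and cofactor genes, 2 of 10 oxidases, 0 of 9 regulators and 0 of 4 other peroxidases. Pex19 was the 1 gene with BDL signals all higher and Pxmp2 the 1 with them all lower, beside 6.32% and 4.26% of all tested genes.

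Genes for the metals and cofactors of these enzymes had 9 tested members of 15 listed, a median of -0.02 and 0 with an unadjusted p under 0.05. By that p, 3.42% of all tested genes were higher and 2.28% lower. Slc31a1, the copper importer, differed by -0.66 (SE 0.44), or by -0.23 without BDL replicate 12, and Sephs2, which makes the selenium donor for selenoproteins, by -0.23 (SE 0.29). Sephs2 was at -0.11 without BDL replicate 3 and at -0.10 without sham replicate 3. Alas1, which starts haem synthesis in liver, had 41772, 99837 and 21535 in BDL replicates 1, 12 and 3, against 33967, 57994 and 28446 in sham replicates 1, 2 and 3, and so was highest on BDL replicate 12 like Sod1. Selenof differed by 0.13 (SE 0.33).

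Regulators of antioxidant genes had 9 tested members of 14 listed, a median of 0.09 and 0 with an unadjusted p under 0.05. By that p, 3.42% of all tested genes were higher and 2.28% lower. Nfe2l2, which encodes NRF2, had 6169, 1273 and 4654 in BDL replicates 1, 12 and 3, against 2947, 764 and 1793 in sham replicates 1, 2 and 3. BDL replicates 1 and 3 lay above all sham mice and BDL replicate 12 below sham replicates 1 and 3, with a log2 difference of 1.06 (SE 0.67, limma adjusted p = 0.832). It was 0.61 and 1.75 without BDL replicates 1 and 12, and 0.53 without sham replicate 2.

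Of the small MAF proteins that pair with NRF2, Mafk differed by 0.72 (SE 0.36) with BDL signals all higher (0.38 without sham replicate 1), Mafg by 0.30 (SE 0.35) and Maff by -0.85 (SE 0.50) with 2 arrays at or under the floor. BDL signals were all higher for 6.32% of all tested genes. Mafg was at 0.13 without BDL replicate 3 and at 0.07 and 0.58 without sham replicates 2 and 3, and Maff at -0.49 and -1.45 without sham replicates 1 and 3. The regulators' median turned to -0.27 without sham replicate 2 and to -0.12 without BDL replicate 3, and was 0.30 without sham replicate 3.

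**Figure D4:**
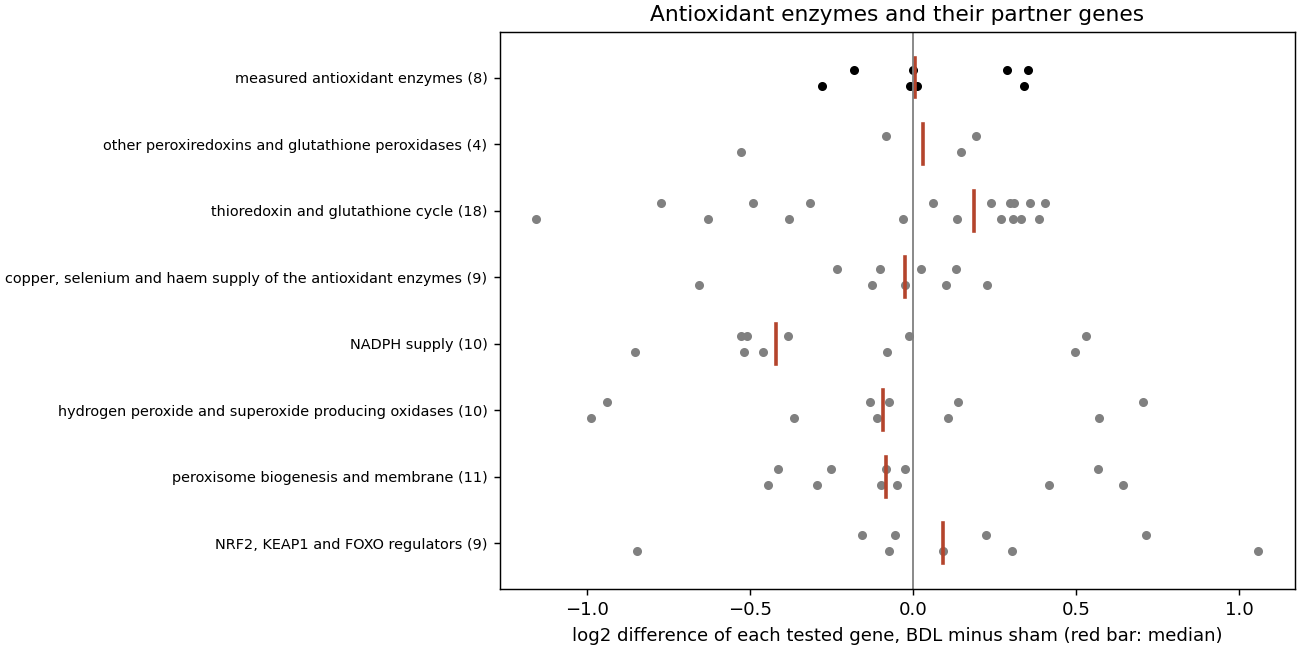
Log2 difference, BDL minus sham, of each tested gene in the antioxidant enzyme list and in 7 lists of partner genes, with the number of tested genes in brackets and a red bar at the median. The enzymes lie between -0.28 and 0.35, and the partner lists spread more widely around medians from -0.42 to 0.19.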

How the data were processed

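The deposited values are 1 linear intensity per probe set and array, made by the authors with GeneChip software (version 3.1) and MicroArray Suite (version 4.0), per the series' design text. Scaling target and background step are not stated there. The deposited intensity values were kept, since trimmed means were equal. The 25th percentile of all values served as a floor before log2 was taken, which understates differences of low signals. Probe sets above this floor on at least 3 of 6 arrays were tested, 9542 of 12488, with 66 controls left out. BDL minus sham was tested with limma 3.58.1 (R 4.3.3; lmFit and eBayes, no covariates) with Benjamini-Hochberg adjustment over all tested probe sets, and the same steps were tested on simulated data. SE is limma's moderated standard error.

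Probe sets were named by the platform annotation, with symbols brought up to RefSeq through gene identifiers: 10833 probe sets had 1 symbol, 396 several and 1193 none. The text names every member, up to 4 genes of smallest unadjusted p in each partner list, and the 3 nearest profiles for the members' mean and for Sod2; marker genes and genes under other observations were chosen after their values were seen. A partner gene was read from its tested probe set of highest mean signal, and the values of its other probe sets are not printed. Members and lists were chosen with earlier results of these data known. With 3 against 3 arrays their number limits the precision, and an exact permutation test cannot give a two-sided p below 0.1. Alternatives covered normalization, floor, filter, variance model, array weights, single arrays left out, the replicate number as a block and the choice of probe set.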

Additional observations from a re-analysis of the deposited data

How the results depend on the processing

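No member probe set passed an adjusted p of 0.05 or an unadjusted p of 0.05 with limma in any of the 18 alternatives, and the whole array had 0 calls in all but 1: with no filter, 3 dim probe sets passed, those of Anxa3, Myc and Ate1, each at or under the floor in all 3 sham mice. Sod3 and both Prdx2 probe sets kept their sign throughout. The median of the member genes ran from 1.97e-06 to 0.176 with single arrays left out, the highest without BDL replicate 12. Signs of differences of up to 0.35 turned, always without a call; the cause was not tested. After quantile normalization, Gpx1 was -0.0261 and Gpx5 0.0200. With equal medians, Sod1 was 0.0107 and Gpx4 0.0185; with the added constant, Gpx4 was 0.000125. With array weights, Cat was 0.12 on 160479_at and -0.0690 on 161877_f_at, Gpx1 -0.0385, Gpx3 -0.00405, Gpx4 0.13 and Alas1 -0.38. With the replicate block, Cat on 160479_at was 0.0595, Gpx4 0.11 and Alas1 -0.0516, with 0 calls. Only numbers 1 and 3 are shared, so BDL replicate 12 and sham replicate 2 added nothing to these differences. That fit could hardly make a call. Deviations of the mice sharing number 1 or 3 correlated at 0.21 and 0.25. No such values are given for mice of unlike number, so these correlations do not show whether the numbers mark pairs. With single arrays left out, ranges that crossed 0 were -0.27 to 0.19 for Sod1, -0.0186 to 0.551 for Sod2, -0.41 to 0.21 and -0.0219 to 0.234 for the Cat probe sets, -0.15 to 0.10 for Gpx1, -0.13 to 0.16 for Gpx4, -0.0764 to 0.288 for Prdx3, -0.0487 to 0.636 for Prdx4, -0.221 to 0.0628 for Gpx5, -0.35 to 0.75 for Alas1 and -0.0921 to 0.381 for Selenof.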

Other observations

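Gclc and Txnrd1, chosen after their values were seen, differed among the BDL mice. Gclc, the catalytic subunit of the rate-limiting enzyme of glutathione synthesis, had signals of 8740, 1963 and 6634 in BDL replicates 1, 12 and 3, against 4289, 3947 and 3840 in sham replicates 1, 2 and 3, with a log2 difference of 0.27 (SE 0.52). Txnrd1, the cytosolic thioredoxin reductase, had 6177, 2738 and 5601 in BDL replicates 1, 12 and 3, against 3518, 3910 and 3624 in sham replicates 1, 2 and 3, a difference of 0.31 (SE 0.36). For both genes BDL replicates 1 and 3 lay above and BDL replicate 12 below all sham mice.

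Txnip, which binds and inhibits thioredoxin, had 1394, 8939 and 1887 in BDL replicates 1, 12 and 3, against 690, 6012 and 2682 in sham replicates 1, 2 and 3. Pex11a, which promotes division of peroxisomes, had 5877, 11870 and 3449 in BDL replicates 1, 12 and 3, against 3613, 9426 and 2974 in sham replicates 1, 2 and 3. Both genes were highest on BDL replicate 12 and sham replicate 2, the arrays on which Sod1 and Alas1 were also highest. Their differences were 0.36 (SE 0.88) and 0.42 (SE 0.56).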
